A study of Homo sapiens with 12 samples.

Results

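The genes described here make mature microRNAs (miRNAs) from their long precursors or carry the precursors out of the nucleus. They are DROSHA, DGCR8, DDX5, XPO5, DICER1, TARBP2, PRKRA and ADAR, chosen by name, not by value, with earlier results of these data known. These are 8 of the 67053 genes in the deposited poly-A RNA tables, and all 8 were among the 15183 genes that passed the filter on low values (FPKM at or above 1 in 2 or more libraries). FPKM is fragments per kilobase of transcript scaled to the library, a level corrected for transcript length and library size. Being relative to the library total, it cannot tell fewer expressing cells from less RNA per cell.

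HEK293T cells, a human embryonic kidney line that carries the SV40 large T antigen, were transfected with 2 µg of plasmid per well and lysed after 48 hours. All groups received a plasmid: the control encoded GFP, and in the others the GFP reporter carried a trigger site taken from BCL2L11 or from TRIM9. A trigger is a transcript whose extensive pairing with a miRNA leads to decay of that miRNA, miR-221 and miR-222 for BCL2L11 and miR-218 for TRIM9. Cells were a transiently transfected population of 1 line, which received either PEI or lipofectamine, and the labels do not say which agent each sample got. Each group has 2 poly-A libraries and 2 small RNA libraries. The titles number the libraries 1 to 3 (replicate 1 of each group, called set 1 here) and 4 to 6 (replicate 2, set 2), and the labels call these neither batches nor pairs.

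In the nucleus, the Microprocessor, made of the nuclease DROSHA and its RNA-binding partner DGCR8, cuts a hairpin out of the primary transcript, with helicases such as DDX5 assisting for some hairpins. XPO5 carries the hairpin through the nuclear pore. In the cytoplasm DICER1, bound by TARBP2 or PRKRA, cuts off the loop, and an Argonaute protein takes up the product. ADAR converts adenosine to inosine in double-stranded RNA, including some miRNA precursors, and can bind DICER1.

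The poly-A tables list 83584 (GFP) to 100723 transcripts above 0 per library in set 1 and 109805 to 110534 in set 2. The FPKM of a library summed to 441892 to 510837 in set 1 and 376984 to 389639 in set 2. Coverage multiplied by length amounts to 3.397 to 4.523 gigabases per library. Read numbers were not given there. The small RNA count table holds 5018875 to 6091151 miRNA reads per library. Of 5 markers of HEK293T, 4 passed the filter, NEFL, NEFM, LIN28B and IGF2BP1, while PAX2 stayed between 0.09 and 0.61 FPKM. Of 16 markers of blood, fibroblasts, keratinocytes, liver and muscle, 4 passed the filter. They were KRT10 (4.48 to 32.2 FPKM), HBA1 (2.35 to 7.45), ACTA1 (2.05 to 5.75) and ALB (0.28 to 2.06). PTPRC, HBB, CD3E and KRT5 were listed at 0 in all 6 libraries.

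Across the 6 libraries the 8 genes spanned a wide range of levels. DDX5 averaged 204 FPKM, above 98.2% of the genes that passed the filter, and its lowest library lay above the highest library of every other member. ADAR averaged 40.5 FPKM, TARBP2 31.0, XPO5 28.1, DGCR8 22.2, PRKRA 21.9, DROSHA 18.8 and DICER1 10.2. Each of these overlapped its neighbour in that order, but genes further apart in it did not all overlap. The lowest ADAR value, 30.1, lay above every library of DGCR8, PRKRA, DROSHA and DICER1, and the lowest XPO5 value, 22.5, above every library of DROSHA and DICER1. Within each library, however, DICER1 was below DROSHA, at 0.265 to 0.795 of its FPKM.

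**Figure D1:**
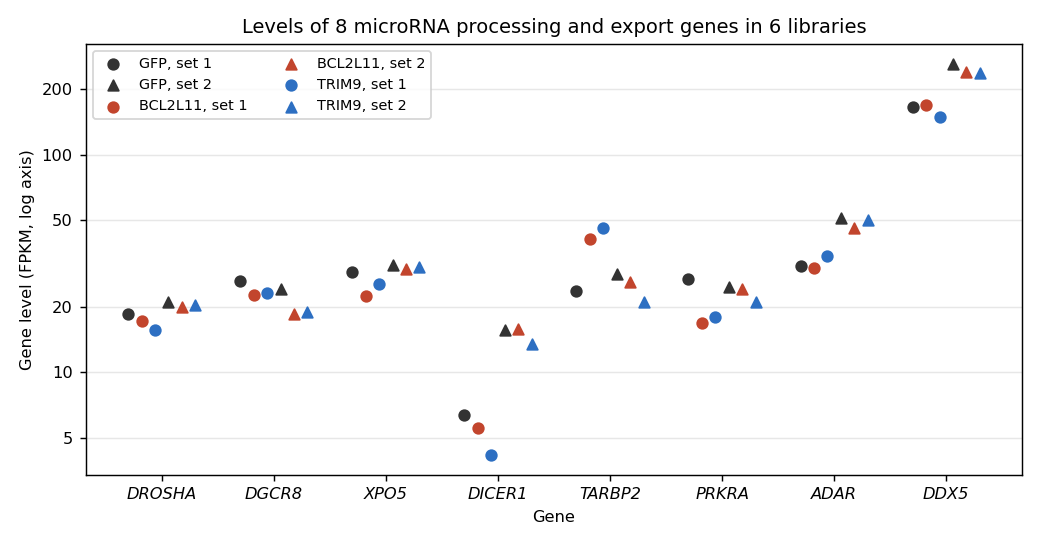
FPKM (log axis) of the 8 genes in 6 poly-A libraries, colour for the plasmid group and marker shape for the library set. DDX5 stands above the other genes, and DICER1, ADAR and DDX5 show set 2 (triangles) above set 1 (circles) in all groups.

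No member passed the test for either trigger. In the comparison of BCL2L11 with GFP, 0 of 8 had an adjusted p under 0.05 by limma with Benjamini-Hochberg adjustment over all genes, where 0.00659% of the 15183 genes (1 gene) passed. For TRIM9 against GFP it was 0 of 8 against 0.00659% (1 gene), and for BCL2L11 against TRIM9 0 of 8 against 0.0132% (2 genes). No member had an unadjusted p under 0.05 in any of them, where 83, 175 and 98 of all genes did. No other tool was run on these values. The median log2 difference of the members was -0.08 for BCL2L11 and -0.14 for TRIM9 against GFP, beside -0.08 and -0.04 over all genes tested. Both trigger comparisons share the GFP libraries, so they are given side by side and do not support each other. The fit by group alone leaves the difference between the sets in its error, and its 95% intervals are wide: for BCL2L11 against GFP they ran from 0.513-fold to 1.32-fold for DGCR8, the narrowest on the log2 scale, and from 0.313-fold to 2.89-fold for DICER1, the widest. All fold changes are on the scale of log2(FPKM + 1).

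DROSHA (ENSG00000113360.16, chr5:31400497-31532196, minus strand, hg38) is the nuclease of the Microprocessor. Its level was 18.5 and 21.1 FPKM in the GFP libraries (replicates 1 and 2), 17.3 and 19.96 with the BCL2L11 trigger and 15.7 and 20.3 with the TRIM9 trigger. The groups overlapped, with the lowest value in TRIM9 replicate 1 and the highest in GFP replicate 2. The log2 difference was -0.08 (SE 0.29) for BCL2L11 and -0.14 (SE 0.29) for TRIM9. In the authors' deposited table the value for BCL2L11 has the other sign, a log2 of 0.64 with a p-value of 0.0752 and a q-value of 1.0, while for TRIM9 it is -0.21.

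DGCR8 (ENSG00000128191.16, chr22:20080232-20111877, plus strand) binds the hairpin and positions DROSHA. Its GFP libraries gave 26.1 and 24.1 FPKM, its BCL2L11 libraries 22.7 and 18.5 and its TRIM9 libraries 23.04 and 18.8. Both GFP values lay above all values with a trigger. Ranges apart in this direction were found for 12.3% of all genes for BCL2L11 and 11.2% for TRIM9 (in the other direction 4.44% and 6.66%), and the log2 differences of -0.28 (SE 0.29) and -0.26 (SE 0.29) did not pass the test. Within set 1 the differences were -0.20 and -0.17, and within set 2 they were -0.37 and -0.34.

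DDX5 (ENSG00000108654.15, chr17:64498254-64508199, minus strand), a helicase that joins the Microprocessor, was at 165.3 and 262.6 FPKM with GFP, 170 and 240 with BCL2L11 and 149 and 237 with TRIM9. The replicates of every group lay further apart than the groups did. The log2 differences were -0.05 (SE 0.41) and -0.15 (SE 0.41).

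XPO5 (ENSG00000124571.18, chr6:43522334-43576038, minus strand), the export receptor, was at 28.9 and 31.1 FPKM with GFP, 22.5 and 29.7 with BCL2L11 and 25.5 and 30.6 with TRIM9. The groups overlapped, and the low values were those of replicate 1 with either trigger. The log2 differences were -0.21 (SE 0.30) and -0.10 (SE 0.30). XPO5 shares 40086 bases of its locus with POLR1C on the other strand, itself at 41.5 FPKM on average, and the sources used here do not say whether strand was used in counting.

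DICER1 (ENSG00000100697.15, chr14:95086228-95158010, minus strand) was at 6.37 and 15.6 FPKM with GFP, 5.56 and 15.9 with BCL2L11 and 4.16 and 13.5 with TRIM9. Every replicate 2 lay above every replicate 1, and the groups overlapped. Its log2 differences of -0.07 (SE 0.68) and -0.36 (SE 0.68) had the largest standard errors among the members. Within set 1 the differences were -0.17 and -0.52, and within set 2 they were 0.02 and -0.20.

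TARBP2 (ENSG00000139546.11, chr12:53500921-53506431, plus strand), a double-stranded RNA binding partner of DICER1, was at 23.6 and 28.4 FPKM with GFP, 40.8 and 26.1 with BCL2L11 and 45.9 and 21.1 with TRIM9. The high values are those of replicate 1 with a trigger, and the groups overlapped. Within set 1 the log2 difference from GFP was 0.76 for BCL2L11 and 0.93 for TRIM9, and within set 2 it was -0.12 and -0.41. Over both sets it was 0.32 (SE 0.43) and 0.26 (SE 0.43). A difference between groups in TARBP2 thus did not hold within both sets.

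PRKRA (ENSG00000180228.13, chr2:178431414-178451512, minus strand), the other such partner and an activator of the kinase PKR, was at 26.7 and 24.6 FPKM with GFP, 16.8 and 24.1 with BCL2L11 and 17.9 and 21.0 with TRIM9. As for DGCR8 and no other member, both GFP values lay above all values with a trigger. Ranges were apart in this direction for 12.3% (BCL2L11) and 11.2% (TRIM9) of all genes. For PRKRA the nearest values, 24.6 with GFP and 24.1 with BCL2L11, were close. The log2 differences were -0.33 (SE 0.31) and -0.39 (SE 0.31) and did not pass the test. Within set 1 they were -0.64 and -0.55, and within set 2 -0.03 and -0.22. PRKRA overlaps CHROMR on the other strand by 8830 bases, at 4.46 FPKM on average.

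ADAR (ENSG00000160710.17, chr1:154582057-154628013, minus strand) was at 30.7 and 51.1 FPKM with GFP, 30.1 and 46.2 with BCL2L11 and 34.2 and 50.3 with TRIM9. All values of replicate 2 lay above all of replicate 1, and the groups overlapped. The log2 differences were -0.08 (SE 0.39) and 0.07 (SE 0.39).

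Between the triggers themselves, the members differed by -0.15 (ADAR) to 0.28 (DICER1) on the log2 scale. All 8 genes overlapped between the BCL2L11 and TRIM9 libraries, where the ranges of 5.72% of all genes were apart with BCL2L11 higher and 8.44% with it lower, and 5 of 8 had the same sign in both sets. DGCR8 and PRKRA differed by -0.02 (SE 0.29) and 0.05 (SE 0.31), with 95% intervals of 0.612-fold to 1.58-fold and 0.629-fold to 1.71-fold. In the authors' deposited tables all 8 genes are listed for both triggers, with q-values of 1.0 for BCL2L11 and 0.9999 for TRIM9. For BCL2L11 the authors' deposited table has ADAR (0.30) and DDX5 (0.21), as well as DROSHA, with the other sign than the fit here. DGCR8 has a log2 of -0.70 and -0.41 and PRKRA of -0.67 and -0.40 in the authors' deposited tables.

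**Figure D2:**
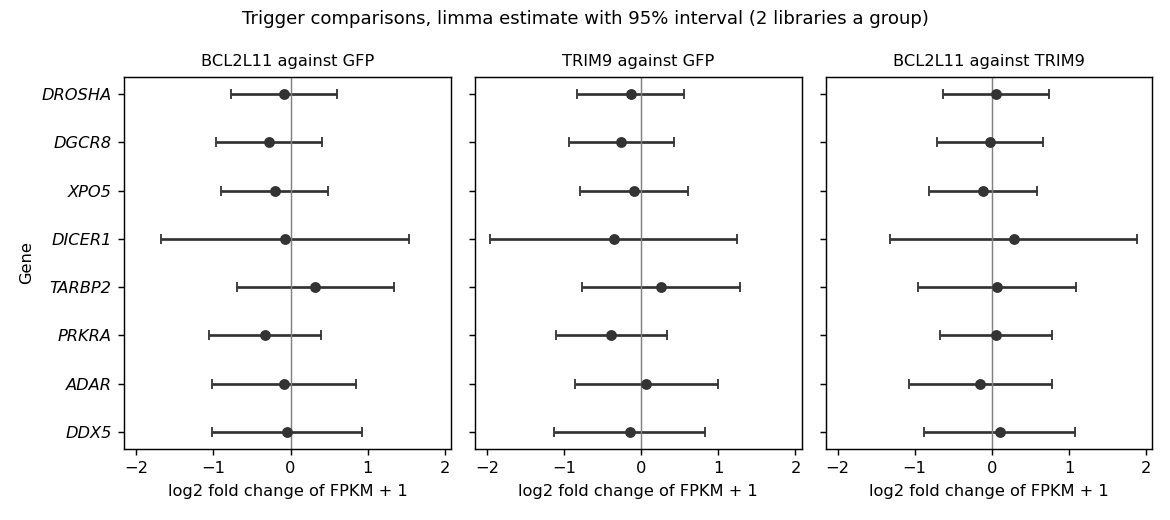
Log2 difference of each gene (points, limma estimate on log2(FPKM + 1)) with its 95% interval (bars) for the 3 comparisons of 2 with 2 libraries. All intervals include 0, and DICER1 has the widest. With FPKM rescaled by TMM (trimmed mean of M-values, a scaling between libraries) the estimates for DROSHA, DICER1, ADAR and DDX5 in BCL2L11 against GFP, and for DGCR8 in BCL2L11 against TRIM9, change sign.

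The library sets were compared by a term fitted beside the group. DICER1, ADAR and DDX5 were higher in set 2, and no member was lower at the threshold. That is 3 of 8, near the background, since 32.9% of all genes passed, 22.5% higher and 10.3% lower. The count is thus no result about the members as a group. With FPKM rescaled by TMM the same count of members passed, while the share of higher genes among those called went from 68.5% to 50.5% and the median of all genes moved by -0.12.

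DICER1 averaged 5.36 FPKM in set 1 and 14.99 in set 2. Its log2 difference was 1.34 (SE 0.14, adjusted p = 0.0111 by limma), a 2.54-fold change on the fitted scale with a 95% interval of 1.999 to 3.215. It was higher in 3 of 3 groups, by 1.17 in GFP, 1.36 in BCL2L11 and 1.49 in TRIM9. ADAR was higher by 0.62 (SE 0.13, adjusted p = 0.0201 by limma) and DDX5 by 0.61 (SE 0.14, adjusted p = 0.0230 by limma), each in 3 of 3 groups. Without either replicate of BCL2L11 or of TRIM9, and so with fewer libraries, the adjusted p by limma was 0.103 to 0.168 for ADAR and 0.122 to 0.163 for DDX5. Their differences stayed at 0.57 to 0.66 and 0.58 to 0.67 without any 1 library. The adjusted p of DICER1 was 0.0033 to 0.0347 without each library, but with no filter on low values it was 0.0680 and no member or other gene passed.

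The other 5 members did not pass for the sets with all 6 libraries in the fit. DROSHA (0.24, SE 0.13, adjusted p = 0.196 by limma) and XPO5 (0.25, SE 0.14, adjusted p = 0.205) had all set 2 values above all set 1 values, as had DICER1, ADAR and DDX5. These 5 of 8 genes stand beside 31.7% of all genes with ranges apart in that direction. PRKRA gave 0.20 (SE 0.16), DGCR8 -0.23 (SE 0.13) and TARBP2 -0.49 (SE 0.27). Without either GFP library, whose group then adds nothing to the set term, the difference was 0.32 for XPO5 and -0.86 for TARBP2. Without each library in turn it ran from 0.177 to 0.321 for XPO5 and from -0.857 to -0.185 for TARBP2. Whether these members passed depended on the library left out.

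Transcript length moved with the difference between the sets over the whole table. Genes whose leading transcript model (that of highest mean FPKM) had up to 2000 bases had a median log2 difference of -0.32, with 5.91% called higher and 23.6% called lower in set 2. For longer models of up to 5000 bases the median was 0.11, with 22% called higher and 4.17% lower, and above that it was 0.54, with 52.5% called higher and 0.576% lower. DICER1, with a leading model of 10384 bases, lay 0.80 above the median of its class, higher than 97.4% of it. ADAR, with 6519 bases, lay near the middle of the same class, above 56.3% of its genes, and XPO5, with 5323 bases, above 26.2%. DDX5 (3558 bases) lay above 82.2% of the middle class, DROSHA (4681 bases) above 59.8% and DGCR8 (4506 bases) above 21.9%. Of the short genes, PRKRA (1770 bases) lay above 83.1% of its class and TARBP2 (1402 bases) above 35.5%. The part that length plays in the differences of the members was not tested.

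Of the 16 markers of other cells 4 were tested. HBA1 and KRT10 passed for the sets, both lower in set 2 (by -0.98 and -1.32 on the log2 scale), beside 10.3% of all genes called lower. Their leading models are short (577 and 583 bases), in the class with 23.6% of genes called lower. The summed FPKM of 4 blood markers was 5.61 to 7.45 in set 1 and 2.35 to 3.77 in set 2, all of it from HBA1, a haemoglobin chain, with PTPRC, HBB and CD3E at 0. That of 3 keratinocyte markers was 8.39 to 32.2 and 4.48 to 7.85, nearly all from KRT10, a keratin of differentiated skin, with KRT5 at 0. Fibroblast markers (4) summed to 0.09 to 1.92 and 0.11 to 0.28, liver markers (2) to 0.63 to 2.84 and 0.59 to 2.24, and muscle markers (3) to 2.94 to 5.80 and 2.06 to 5.13. Markers of HEK293T (5) summed to 58.9 to 70.4 and 86.6 to 96.2. Their part in the differences of the members was not tested.

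**Figure D3:**
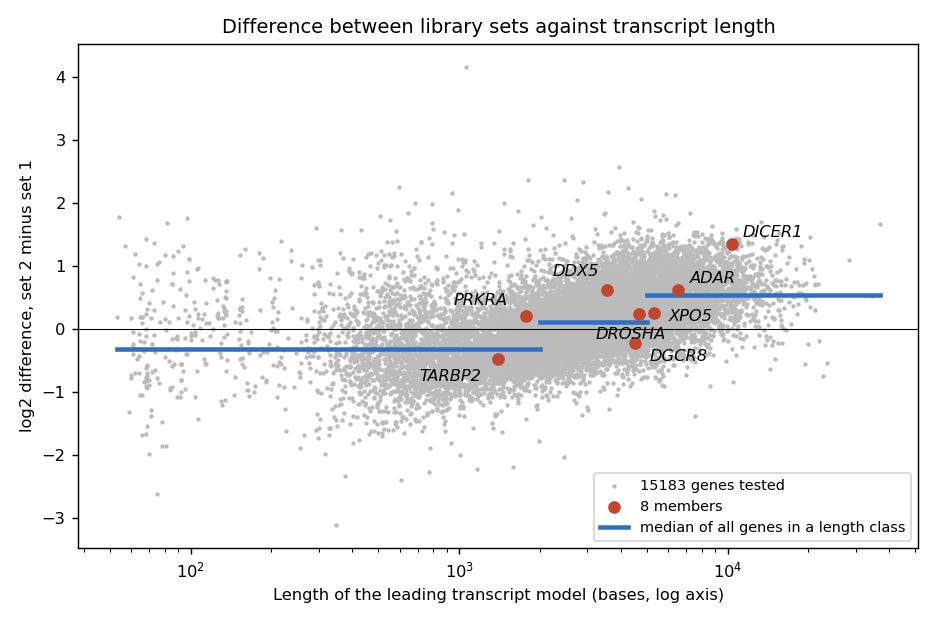
Log2 difference between the library sets (set 2 minus set 1) against the length of the leading transcript model (log axis), for all genes tested (grey) and the 8 members (red), with the median of each length class (blue lines). The medians go from -0.32 to 0.54 with length, and DICER1 lies 0.80 above that of its class.

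Ratios within a library, which do not depend on its scaling, set the members against each other. DICER1 over DROSHA was 0.345, 0.321 and 0.265 in set 1 (GFP, BCL2L11, TRIM9) and 0.740, 0.795 and 0.663 in set 2. The sets did not overlap, and the groups did. DGCR8 over DROSHA, the ratio of the Microprocessor's subunits, was 1.42, 1.31 and 1.47 in set 1 and 1.14, 0.926 and 0.927 in set 2, again apart between the sets. XPO5 over DROSHA was steadier, at 1.57, 1.30 and 1.63 and then 1.47, 1.49 and 1.51. ADAR over DDX5 stayed between 0.178 and 0.230, with the highest value in each set in the TRIM9 library. TARBP2 over PRKRA was 0.883 in GFP of set 1 and 2.42 and 2.56 with the triggers there, and 1.15, 1.08 and 1.001 in set 2. The unequal level of the DICER1 partners was thus seen in 2 of the 4 libraries with a trigger. These ratios were chosen after the values were seen and have no test. How many other gene pairs have ratios apart between the sets was not counted. Of single genes, 31.7% were apart with set 2 higher and 18.2% with it lower. The leading models of DICER1 and DROSHA also differ in length (10384 and 4681 bases), and the part of length in their ratio was not tested.

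**Figure D4:**
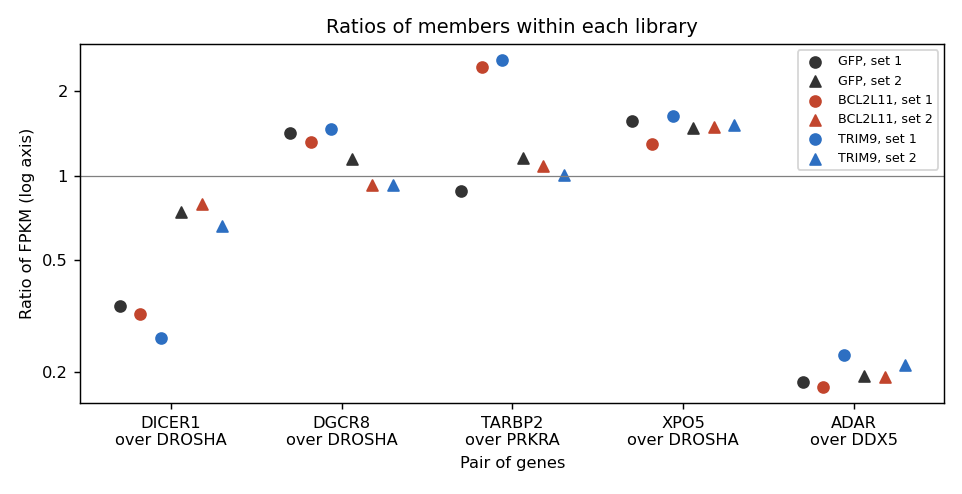
Ratio of FPKM (log axis) for 5 pairs of members in each library, colour for the plasmid group and marker shape for the set. DICER1 over DROSHA separates the sets, and TARBP2 over PRKRA sets 2 libraries (2.42 and 2.56) apart from the other 4 (0.883 to 1.15).

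The 8 genes hold 148 transcript models, of which 134 were above 0 in at least 1 library and 18 made up at least 10% of their gene's FPKM on average. Of these models 43 passed the filter, and 0 of 43 were called in any comparison by limma, where 0%, 0.00302% and 0.00302% of 33099 transcripts passed for BCL2L11 against GFP, TRIM9 against GFP and BCL2L11 against TRIM9. XPO5 was made up of 1 model in every library, ENST00000265351.12 with 87.4% to 91.9%. Most other members were assigned to different models from library to library, also within a group.

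The shares of the named DGCR8 models did not overlap between the sets, nor did that of the leading PRKRA model (below). How many transcripts have shares apart in this way was not counted, and 0% of the 33099 transcripts passed between the sets. Models of other members also differed without passing, such as ENST00000579461.1 of DDX5 by 1.94 (SE 0.22) and ENST00000442743.5 of DROSHA by -1.31 (SE 0.30). The full-length DGCR8 model ENST00000351989.8 had 74.1% to 75.9% of the gene's FPKM in set 1 and 34.9% to 46.4% in set 2. Its level was 19.4, 17.2 and 17.1 FPKM in set 1 (GFP, BCL2L11, TRIM9) and 8.41, 8.57 and 7.62 in set 2. The difference of -1.04 on the log2 scale (SE 0.19) did not pass over all transcripts (adjusted p = 0.141 by limma). The shorter model ENST00000498171.5, which begins downstream at chr22:20087036, went the other way, from 2.57, 0.90 and 1.07 FPKM to 5.69, 4.98 and 4.09 (log2 difference 1.28, SE 0.26, adjusted p = 0.143 by limma). The gene as a whole differed by -0.23.

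The 5′ part of the DGCR8 transcript holds hairpins that the Microprocessor itself cuts, a known feedback on the level of DGCR8. They are the precursors of miR-3618 and miR-1306, whose RefSeq sequences (GRCh38.p14) are shown because they are the miRNAs that lie in this member, with the seed, bases 2 to 8, in capitals:
hsa-miR-3618: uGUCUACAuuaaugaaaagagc
hsa-miR-1306-5p: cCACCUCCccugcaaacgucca
hsa-miR-1306-3p: aCGUUGGCucugguggug
They lie on the plus strand at chr22:20085797-20085818, chr22:20086072-20086093 and chr22:20086112-20086129, and no seed is shared. The count table does not list miR-3618, so it was not tested. The models ENST00000495826.5 and ENST00000407755.1, picked out after their values were seen, begin 2 and 4 bases after the last base of miR-3618. The first was at 0.16, 0.24 and 0.48 FPKM in set 1 and 2.76, 0.54 and 1.71 in set 2, and the second at 0, 0 and 0.21 and then 1.18, 0.84 and 1.84. Both were higher in every library of set 2 than in any of set 1, as were 19.9% of the 33099 transcripts tested.

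The miRNA from the 5′ arm, miR-1306-5p, had 132 and 106 reads in the GFP libraries (replicates 1 and 2), 123 and 73 with BCL2L11 and 101 and 21 with TRIM9. Scaled to the library's TMM-corrected miRNA total (CPM) this is 24.1 and 19.1, 22.8 and 13.1, and 16.2 and 5.00. The low value is that of TRIM9 replicate 2. On this scale both TRIM9 values lay below both GFP values, as for 16.9% of the 443 miRNAs tested, while the BCL2L11 group overlapped GFP. The log2 difference was -0.26 (SE 0.50) for BCL2L11 and -0.97 (SE 0.51) for TRIM9, with adjusted p = 0.995 and 0.958 by edgeR's quasi-likelihood test. Its partner miR-1306-3p had 7 to 19 reads per library, in CPM below GFP without overlap for BCL2L11 (as for 16.5% of miRNAs) and overlapping for TRIM9, and differed by -0.50 (SE 0.52) and -0.28 (SE 0.51).

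DICER1 was made up mainly of ENST00000343455.8, the 10384-base model, with 89.0% of the gene's FPKM in GFP replicate 1, 83.3% in TRIM9 replicate 1 and 57.8%, 59.1% and 81.3% in set 2. In BCL2L11 replicate 1 it had 0.524%, and the shorter ENST00000675540.1 (7768 bases, with 14 exons against 27) had 86.1%. That model was listed at 0 in GFP replicate 1 and in both TRIM9 libraries, and had 21.3% in GFP replicate 2 and 25.5% in BCL2L11 replicate 2. It did not pass for BCL2L11 against TRIM9 (log2 difference 2.43, SE 0.72, adjusted p = 1 by limma).

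DICER1 also holds a miRNA, at chr14:95137961-95137982 on the minus strand (RefSeq, GRCh38.p14), shown for the same reason:
hsa-miR-3173-5p: uGCCCUGCcuguuuucuccuuu
It had 10 and 19 reads with GFP, 27 and 25 with BCL2L11 and 34 and 17 with TRIM9. In CPM this is 1.83 and 3.42, 5.00 and 4.50, and 5.45 and 4.05, so that both GFP values lay below all values with a trigger. Such ranges apart were found for 12% of the miRNAs tested for BCL2L11 and 13.8% for TRIM9. The log2 differences were 0.86 (SE 0.47) and 0.88 (SE 0.47), with adjusted p = 0.995 and 0.958 by edgeR. In DDX5, miR-3064-5p had 0 to 2 reads per library and was not tested.

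ADAR was split between models that begin at an upstream start (8 models near ENST00000368471.8) and at a start further downstream (5 models near ENST00000368474.9). ADAR is known to make a longer, interferon-inducible protein and a shorter, constitutive one from different start sites. Neither group of models is assigned to either protein here, and an upstream start does not mean the longer protein. The upstream models had 59.4% and 89.0% of the FPKM in the GFP libraries, 46.3% and 53.6% with BCL2L11 and 98.8% and 43.9% with TRIM9. The downstream ones had 39.7% and 8.17%, 52.9% and 45.4%, and 0.272% and 50.4%. The highest and the lowest upstream share were those of the TRIM9 replicates. Both GFP shares lay above both BCL2L11 shares, TRIM9 overlapped both groups, and the sets overlapped. The start regions were chosen after the values were seen. How many other genes have model shares apart between GFP and BCL2L11 was not counted, so this is no result about the trigger. The shares have no test, and none of the 3 models with at least 10% of the gene passed.

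The 4 remaining members had no fixed leading model. The share of ENST00000513349.5 of DROSHA ran from 17.7% (TRIM9 replicate 1) to 86.4% (GFP replicate 2). That of ENST00000325748.9 of PRKRA was apart between the sets, at 70.9% to 83.5% in set 1 and 16.3% to 59.9% in set 2. TARBP2 was spread over 4 models of at least 10%, and its leading one, ENST00000394357.6, had 0% in GFP replicate 1 and 42.1% in BCL2L11 replicate 1. DDX5 was divided between ENST00000581230.5 (39.0% to 57.7%) and ENST00000225792.10 (31.4% to 56.1%). These shares are StringTie estimates from reads that overlapping models have in common.

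**Figure D5:**
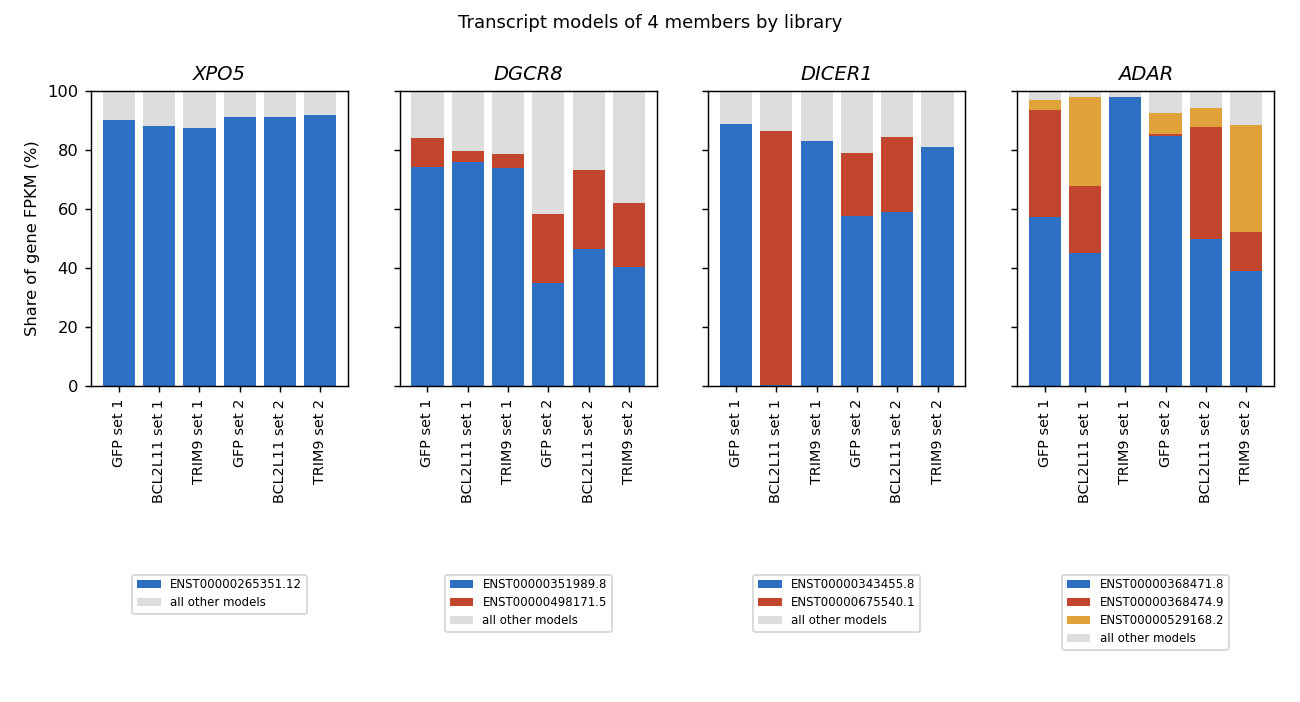
Share of the gene's FPKM (%) taken by its named transcript models in each library, for XPO5, DGCR8, DICER1 and ADAR, with grey for all other models. XPO5 keeps 1 model, and the shares of the named DGCR8 models do not overlap between the sets. DICER1 in BCL2L11 set 1 and ADAR in TRIM9 set 1 differ from the other libraries of their set.

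Some miRNAs skip a step, and their reads are another readout of the same pathway. Mirtrons are spliced out and need no DROSHA, miR-320a and miR-484 arise from short capped transcripts that need none either, and miR-451a is cut by AGO2 in place of DICER1. Of 19 miRNAs that lie in members or take these routes, 15 were in the count table and 8 were tested by edgeR. None of the 8 passed for BCL2L11 against GFP (0.226% of 443 miRNAs called), TRIM9 against GFP (0%) or BCL2L11 against TRIM9 (0.226%). None had an unadjusted p under 0.05, and DESeq2 called 0 as well. With a term for the library sets 1 of the 8 passed for BCL2L11 against GFP, miR-451a (log2 difference -1.23, adjusted p = 0.0404 by edgeR). The share of all miRNAs called in that fit is not given here. In CPM miR-451a was at 430 with BCL2L11 and 2089 with GFP in set 1, but at 2150 and 2315 in set 2. In the fit by group alone the median log2 difference of the 8 miRNAs was 0.05, -0.14 and -0.01, beside 0.00, 0.01 and -0.02 over all tested miRNAs. Shown, as examples of these routes with reads given here, are both mirtrons tested and 1 of the 2 capped miRNAs tested (seed in capitals):
hsa-miR-877-5p: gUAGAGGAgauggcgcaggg
hsa-miR-1226-3p: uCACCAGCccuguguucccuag
hsa-miR-484: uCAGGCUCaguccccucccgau
They lie at chr6:30584332-30584351, chr3:47849608-47849629 and chr16:15643301-15643322, all on the plus strand.

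The mirtron miR-877-5p had 140 and 93 reads with GFP, 178 and 120 with BCL2L11 and 181 and 69 with TRIM9. In CPM the sets differed more than the groups, at 25.6 to 32.9 in set 1 and 16.4 to 21.6 in set 2. The log2 difference was 0.37 (SE 0.37) for BCL2L11 and 0.14 (SE 0.37) for TRIM9. The rarer miR-1226-3p had 4 to 14 reads, and in CPM its GFP values of 0.731 and 0.719 lay below all others (1.08 to 2.59), as for 12% (BCL2L11) and 13.8% (TRIM9) of miRNAs. It differed by 1.32 (SE 0.73) and 1.31 (SE 0.74). By edgeR its adjusted p was 0.995 and 0.958.

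Capped miR-484 had 1631 and 2226 reads with GFP, 2064 and 2331 with BCL2L11 and 1989 and 1093 with TRIM9. It differed by 0.21 (SE 0.21) and -0.25 (SE 0.21). For miR-320a-3p the counts were 3617 and 2370, 3232 and 2294, and 3811 and 1830, with differences of -0.10 (SE 0.29) and -0.03 (SE 0.29). The DICER1-independent miR-451a, which is abundant in blood cells, had 11431 and 12877 reads with GFP, 2324 and 11951 with BCL2L11 and 5558 and 11386 with TRIM9. Both replicates 1 with a trigger were low, and the differences were -0.77 (SE 0.70) and -0.27 (SE 0.69).

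Partners of the members were followed as 4 lists. No gene of any list passed for a trigger or between the triggers by limma: 0 of 18 tested Microprocessor cofactors, 0 of 8 export genes, 0 of 9 other double-stranded RNA binding or editing genes and 0 of 4 Argonautes. Their median log2 differences were -0.03, -0.12, -0.11 and -0.22 for BCL2L11 and -0.03, -0.03, -0.04 and -0.13 for TRIM9, beside -0.08 and -0.04 over all genes. Among cofactors, ERH, a small partner of DGCR8, differed by 0.40 (SE 0.34) for BCL2L11, and SRSF3, a splicing factor that helps place the DROSHA cut, by -0.36 (SE 0.33) for TRIM9. AGO2, the slicing Argonaute, was at 5.04 and 9.49 FPKM with GFP, 3.11 and 7.74 with BCL2L11 and 3.75 and 6.54 with TRIM9, a log2 difference of -0.41 (SE 0.49) for each trigger. CDKN2AIP, with -0.50 (SE 0.38) and -0.55 (SE 0.38), had the lowest p of the double-stranded RNA list.

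Between the sets the lists held called genes in both directions, beside 22.5% of all genes called higher and 10.3% called lower. Of 18 cofactors, 3 were higher in set 2 (DDX17, the paralogue of DDX5, by 0.67, DDX3X by 1.23 and LIN28B, the let-7 precursor binder, by 1.21) and 2 lower (HNRNPA2B1 by -0.58 and EWSR1 by -0.52). Of 8 export genes, the pore protein NUP153 (1.35) and the exportins XPO1 (1.03) and XPOT (1.06) were higher, and RANBP1, a Ran cofactor, was lower (-0.76). In the double-stranded RNA list 6 of 9 were higher, EIF2AK2 (PKR) by 1.01, STAU2 by 0.97, CDKN2AIP by 0.53, STRBP by 0.50, STAU1 by 0.49 and DHX9 by 0.48. Of the Argonautes, AGO2 (0.85), AGO4 (0.73) and AGO1 (0.61) were higher, and AGO3 gave 0.46 with an adjusted p of 0.0546 by limma. With TMM rescaling the counts were 3 higher and 5 lower, 3 and 2, 2 and 0, and 3 and 0. By length of the leading model, 0 of 9 list genes of up to 2000 bases were called higher and 2 lower, 7 and 1 of 18 in the middle class, and 8 and 0 of 11 above 5000 bases. The longest, AGO3, was not called.

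The genes whose profile over the 6 libraries was most like the mean profile of the 8 members were PIK3R3, QSOX2 and POFUT1, among 8494 candidates with a mean FPKM of at least 5. Their root mean square difference from that profile was 0.027, 0.028 and 0.031 on the log2 scale. The mean profile itself was -0.10, -0.19 and -0.19 in set 1 (GFP, BCL2L11, TRIM9) and 0.26, 0.14 and 0.08 in set 2.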

How the data were processed

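Poly-A RNA and small RNA of 3 groups, with 2 libraries each, were analysed. The series' design text calls the 2 libraries biological replicates, and no separate cultures are named beyond that. The submitters' processing notes name hg38, STAR, StringTie 2.1.3, cutadapt 3.4 and DESeq2 1.20.0. The authors' deposited StringTie tables give, per the file headers, coverage (the mean read depth per base) and FPKM for each transcript. The deposited small RNA table gives the read count of each mature miRNA, not normalised. The authors' deposited gene tables cover 5930 genes (BCL2L11) and 6131 genes (TRIM9) with the p-value, the q-value and the fold change, both as a ratio and as log2, and the sources used here do not name the tool behind them.

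Gene FPKM was the sum over a gene's transcripts, and limma 3.58.1 was run on log2(FPKM + 1) with the group as the sole factor (trend, all 6 libraries), keeping genes that reached an FPKM of 1 in 2 or more libraries. Transcripts were fitted in the same way, and counts in edgeR 4.0.16 (TMM, filterByExpr, quasi-likelihood). p was two-sided, adjusted by Benjamini-Hochberg over all features, with a threshold of 0.05. With 2 libraries on each side the smallest p of an exact test would be 0.333. The fits were also run on simulated data in which each library varied independently. Those data left out the joint deviation of same-numbered libraries, so they give no assurance on that point. No 2 poly-A libraries held identical values.

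The members and lists were chosen with earlier results of these data known. Named were all 8 members, transcript models with at least 10% of a gene, list genes that passed or had the lowest p (up to 4 per list, of which part are printed), and the 3 most alike genes. Chosen after the values were seen were the ratios, length classes, ADAR start regions, overlapping genes, 2 DGCR8 models, and the alternatives for each member's difference between the sets. Alternatives varied scaling (TMM, and DESeq2 size factors for miRNAs), pseudocount (0.1), filters (FPKM of 5, or none), trend, tool (DESeq2 1.42.0 for miRNAs), samples, a term for the sets, and left out each library.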

Additional observations from a re-analysis of the deposited data

How the results depend on the processing

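For the trigger comparisons no member and no member transcript passed under any alternative run, and the members' adjusted p by limma stayed between 0.774 and 1. Signs of small differences were not stable: 12 of 104 values reversed for BCL2L11 against GFP, 9 of 104 for TRIM9 against GFP and 17 of 104 between the triggers. With TMM rescaling, BCL2L11 against GFP gave 0.0141 for DROSHA, 0.0199 for DICER1, 0.0172 for ADAR and 0.0566 for DDX5, and BCL2L11 against TRIM9 gave 0.0103 for DGCR8. Leaving out each library moved BCL2L11 against GFP from -0.44 to 0.28 for ADAR, -0.38 to 0.29 for DDX5, -0.76 to 0.61 for DICER1 and -0.18 to 0.0146 for DROSHA. For TRIM9 against GFP the ranges were -0.29 to 0.42 (ADAR), -0.48 to 0.18 (DDX5), -1.10 to 0.39 (DICER1), -0.31 to 0.0392 (DROSHA), -0.29 to 0.80 (TARBP2) and -0.22 to 0.0295 (XPO5). Between the triggers they were -0.45 to 0.15 (ADAR), -0.23 to 0.44 (DDX5), -0.17 to 0.12 (DGCR8), -0.46 to 1.03 (DICER1), -0.12 to 0.23 (DROSHA), -0.20 to 0.30 (PRKRA), -0.48 to 0.61 (TARBP2) and -0.30 to 0.0848 (XPO5). For the sets no value reversed. The genes called for TRIM9 against GFP were 5 with only the 2 groups in the fit and 1 to 5 without each library.

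Between the sets 0 members and 0 genes passed with no filter, where DICER1 had an adjusted p of 0.0680, ADAR of 0.0708 and DDX5 of 0.0903 by limma with the same differences. Without each library 1 to 5 members and 1247 to 8129 genes passed. A lone library left in a group is assumed to vary like the others. The causes were not tested.

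Same-numbered libraries of the groups deviated together (Pearson's r of 0.49 to 0.83 across genes and 0.22 to 0.40 across miRNAs), but the labels give the numbers no meaning. With the replicate block the interval of DICER1 for BCL2L11 against GFP was 0.710-fold to 1.27-fold, and 6 genes passed for TRIM9 against GFP. Members' lowest adjusted p with the block was 0.824 for BCL2L11, 0.774 for TRIM9 and 1.0 between the triggers by limma. Of the miRNAs that lie in members or skip a step, 1 passed with the block, miR-451a for BCL2L11 against GFP (-1.23, adjusted p = 0.0404 by edgeR). Its low BCL2L11 value was that of set 1 alone, and the share of all miRNAs called in that fit is not given here. With 2 libraries a group, and no read numbers for the poly-A data, depth cannot be set against these intervals.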
